A study of Mus musculus with 6 samples.

Results

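Glutathione and thioredoxin are the main thiol systems by which a cell detoxifies peroxides, and both were followed here through 10 genes in splenic monocytes with and without the interleukin-4 receptor alpha chain (IL-4Rα). The genes were Gclm, Gclc, Gss, Gsr, Nqo1, Txnrd1, Srxn1, Slc7a11, Nfe2l2 and Keap1. Gclm was selected on its difference between the genotypes in these same libraries, and the other 9 were chosen by their known roles around it. The 10 genes were part of 55421 genes in the count files, and all 10 were among the 13849 genes with enough counts to be tested.

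RNA sequencing was performed on monocytes from the spleens of adult mice of the C57BL/6 strain, 3 with an intact receptor (IL-4Rα+/+) and 3 lacking it in every cell (IL-4Rα-/-), with 1 library per mouse. The labels name no other allele and no treatment. Monocytes were enriched from splenocytes with magnetic beads that bind the other cells, so the libraries may hold RNA of cells that escaped the beads. The comparison asked how transcription in these monocytes differs when the receptor is absent.

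The members fall into a short pathway. The light chain Gclm and the catalytic chain Gclc form glutamate-cysteine ligase, the rate-limiting enzyme of glutathione synthesis. Gss adds the last amino acid, Slc7a11 imports the cystine that limits the supply, and Gsr returns oxidized glutathione to its reduced form. NRF2, encoded by Nfe2l2, is held at a low level by KEAP1 in resting cells and, when released, binds antioxidant response elements beside genes such as those of glutamate-cysteine ligase, Nqo1, Txnrd1 and Srxn1.

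The antioxidant response element has a core of TGACNNNGC, which was searched on both strands of the RefSeq promoter windows of GRCm38, each from 250 bases before to 50 bases after a gene's start. Of all 32851 windows, 4071 (12.4%) held the core. A window was given for 8 members, with 10 windows in all, and 4 of these windows, in Gclm, Txnrd1, Nfe2l2 and Srxn1, held it. The stretch before the start is shown for Gclm, the gene the comparison turns on, from chr3:122245307-122245556 on the plus strand. Shorter stretches around the core are shown for the members in which it lay before the start, Txnrd1 from chr10:82859094-82859142 on the plus strand and Nfe2l2 from chr2:75704875-75704913 on the minus strand. Each is written 5′ to 3′ on the strand of its gene, and capitals mark the core or its complement.
Gclm: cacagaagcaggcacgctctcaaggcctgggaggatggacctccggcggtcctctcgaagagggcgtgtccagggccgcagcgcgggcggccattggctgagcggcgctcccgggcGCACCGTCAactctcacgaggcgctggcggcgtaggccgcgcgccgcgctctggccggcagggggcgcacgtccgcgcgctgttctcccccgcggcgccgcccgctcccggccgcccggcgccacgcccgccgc
Txnrd1: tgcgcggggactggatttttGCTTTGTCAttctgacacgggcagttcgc
Nfe2l2: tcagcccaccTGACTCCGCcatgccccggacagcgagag
In Gclm the core began 134 bases before the start and was written on the opposite strand. The Txnrd1 core belonged to 1 of 3 windows of that gene. A match describes the letters only, and binding of NRF2 was not measured.

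Each library held 26807281 to 29033297 reads on genes. Il4ra, the gene deleted in the knockout, measured 137, 128 and 177 CPM (read counts scaled to library size by TMM) in the IL-4Rα+/+ libraries and 27.9, 79.4 and 31.8 CPM in the IL-4Rα-/- libraries. Its reads were lower in every IL-4Rα-/- library, with a log2 fold change of -1.67 ± 0.41 (SE) and an adjusted p of 0.618 in edgeR and 0.0111 in DESeq2, although IL-4Rα-/- replicate 2 kept more of them than the other two. Which exons the reads fell on cannot be read from gene counts. Xist, transcribed in female cells, was high in 1 library of each genotype, IL-4Rα+/+ replicate 1 at 553 CPM and IL-4Rα-/- replicate 3 at 457 CPM, and was at most 3.73 CPM in the others. The sum of 10 monocyte markers such as Csf1r and Ccr2 was 18523 to 23709 CPM in IL-4Rα+/+ and 20262 to 24165 CPM in IL-4Rα-/- libraries, which overlap. Lyz2 was the largest part of each sum, at 8847 to 17025 CPM. Csf1r was 2227 to 3095 CPM over the libraries. Ccr2 ran from 380 CPM in IL-4Rα+/+ replicate 1 to 2008 CPM in IL-4Rα-/- replicate 2, and Ace from 2774 to 710 CPM in the same libraries. Markers of eosinophils, basophils and mast cells summed to 80.2 to 94.4 CPM in IL-4Rα+/+ and 136 to 219 CPM in IL-4Rα-/- libraries, and DESeq2 called 2 of them, Cpa3 and Ms4a2. Ccr3 alone gave 52.7 to 67.1 and 73.4 to 137 CPM of these sums. Of the 11 tested markers 10 had a log2 fold change above 0 and 1, Siglecf, below, at -0.56. Markers of pancreatic acinar cells reached 365 CPM in IL-4Rα-/- replicate 2 against at most 53.8 CPM in the others. The sums for B and plasma cells, T and NK cells, dendritic cells and megakaryocytes overlapped between genotypes.

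By edgeR's quasi-likelihood test 0 of 13849 genes (0.0%) passed an adjusted p of 0.15, and the lowest adjusted p was 0.618. At an unadjusted p under 0.05 there were 1120 genes, 515 higher (3.72%) and 605 lower (4.37%) in IL-4Rα-/-. DESeq2 called 80 of the 14003 genes it tested (0.571%). These tests set the difference between genotypes against the spread between the mice of each genotype. In bulk RNA, fewer cells of a type and less RNA per cell cannot be told apart.

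Gclm, on chromosome 3 (GRCm38, 122245557 to 122270732, plus strand), was the member with the clearest separation. It measured 30.7, 29.6 and 28.8 CPM in the IL-4Rα+/+ libraries and 38.3, 41.2 and 46.7 CPM in the IL-4Rα-/- libraries. All 3 IL-4Rα-/- libraries lay above all 3 IL-4Rα+/+ libraries, which were close to each other. The means were 29.7 ± 0.956 and 42.1 ± 4.28 CPM (SD, n = 3 each), a log2 fold change of 0.50 ± 0.09 (SE), or 1.42-fold. These values rested on 762 to 1382 reads per library, so that the spread from counting alone was at most 3.62% of the value. The spread between libraries was 3.22% of the mean in IL-4Rα+/+, no more than counting alone gives, and 10.2% in IL-4Rα-/-. The genes that overlap Gclm in the annotation, Gm6061 and Gm17494, had at most 0.21 CPM.

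Since Gclm was selected on these 6 libraries, its values in parts of them are a description and no independent support. Gclm was 1.52-fold higher in IL-4Rα-/- between the libraries with Xist reads, 1 of each genotype, and 1.36-fold higher between the means of those without, 2 of each. In the same split 6 other members turned direction, with IL-4Rα-/- over IL-4Rα+/+ at 0.962-fold with and 1.34-fold without Xist for Txnrd1, 0.92 and 1.31-fold for Srxn1, 0.809 and 1.5-fold for Nqo1, 0.70 and 1.14-fold for Slc7a11, 0.792 and 1.05-fold for Nfe2l2, and 0.903 and 1.02-fold for Gsr. Leaving out IL-4Rα-/- replicate 2, the library that kept the most Il4ra reads, gave a log2 fold change of 0.52, and leaving out IL-4Rα-/- replicate 3, which had the highest Gclm, gave 0.42. Markers of other cells differed as well. The summed level of the erythroid markers was 80.9 to 134 CPM in IL-4Rα+/+ and 200 to 506 CPM in IL-4Rα-/- libraries, and was highest in IL-4Rα-/- replicate 3. All 18 measured erythroid markers had a log2 fold change above 0, and none was at 0 in all libraries. In edgeR 0 of them passed the adjusted test and 12 were higher at an unadjusted p under 0.05. DESeq2 called 3, Hba-a1 (adjusted p = 0.0424), Slc4a1 (adjusted p = 0.0471) and Hbb-bt (adjusted p = 0.107). Sums of other lists were also higher in IL-4Rα-/- without overlap. They were 136 to 219 against 80.2 to 94.4 CPM for eosinophils, basophils and mast cells. For red pulp macrophages they were 3575 to 6187 against 3022 to 3339 CPM. The part of any of these cells in the Gclm difference was not tested.

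**Figure D1:**
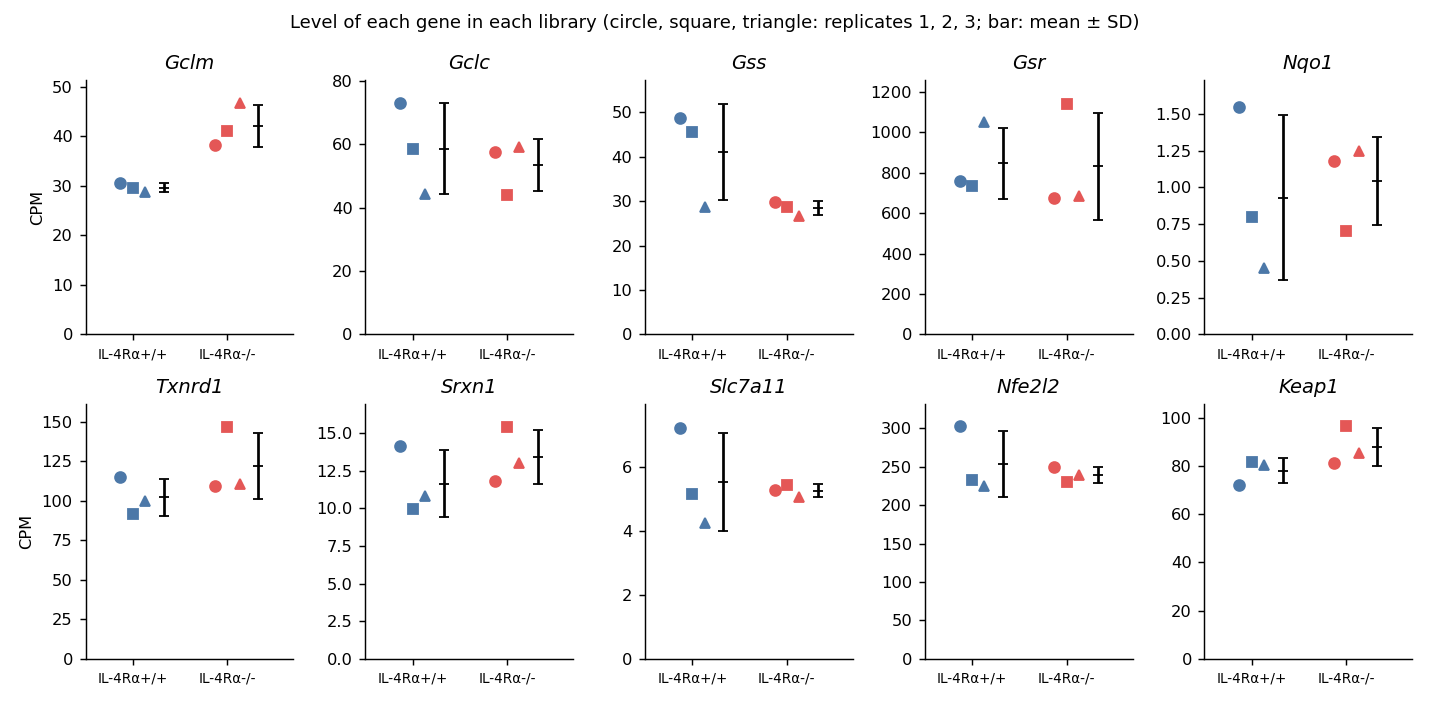
Level of each of the 10 genes in CPM (vertical axes, from 0) in 3 IL-4Rα+/+ (blue) and 3 IL-4Rα-/- (red) libraries, with the mean ± SD in black. Gclm is the only panel in which the genotypes do not overlap, at 28.8 to 30.7 against 38.3 to 46.7 CPM.

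Among the 10 members 1 did not overlap between genotypes with the higher level in IL-4Rα-/- (Gclm) and 0 with the lower, beside 7.63% and 7.87% of all genes tested. Since Gclm was selected on this contrast, nothing is read from that count. Of the members, 5 had a log2 fold change above 0 and 5 below, and their median was 0.067 against 0.008 for all genes tested.

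The catalytic partner did not follow the light chain. Gclc measured 72.9, 58.5 and 44.4 CPM in IL-4Rα+/+ and 57.5, 44.0 and 59.0 CPM in IL-4Rα-/- libraries. The libraries of the genotypes were interleaved, with the highest value in IL-4Rα+/+ replicate 1 and the lowest in IL-4Rα-/- replicate 2. The log2 fold change was -0.13 ± 0.20 (SE). Per exon length (TPM, read counts scaled to exon length and library size), the ratio of Gclm to Gclc was 0.252, 0.303 and 0.388 in IL-4Rα+/+ and 0.399, 0.56 and 0.475 in IL-4Rα-/- libraries. The light chain thus had the lower level per length in every library, and the ratio averaged 0.314 ± 0.0687 and 0.478 ± 0.0805 (SD, n = 3 each). The highest IL-4Rα+/+ ratio and the lowest IL-4Rα-/- ratio were close.

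Gss, glutathione synthetase, was lower on average in IL-4Rα-/-, the opposite direction to Gclm. It measured 48.8, 45.6 and 28.7 CPM in IL-4Rα+/+ and 29.9, 28.7 and 26.8 CPM in IL-4Rα-/- libraries. The first 2 IL-4Rα+/+ replicates stood above all others, whereas the third lay within the IL-4Rα-/- range. The log2 fold change was -0.53 ± 0.20 (SE), and it was -0.73 without IL-4Rα+/+ replicate 3. Gss shares 395 of its 5915 exonic bases with Acss2, an acetyl-CoA synthetase gene on the opposite strand of chromosome 2. Acss2 measured 49.9, 39.0 and 25.0 CPM in IL-4Rα+/+ and 24.1, 24.2 and 23.8 CPM in IL-4Rα-/- libraries, the same order of the IL-4Rα+/+ libraries as in Gss. The strand used for counting is not given in the sources used here. Reads that match 2 genes are set apart as ambiguous and were left out. If the strand was ignored, reads of the shared bases thus counted for neither gene. Any part of Acss2 reads in the Gss levels was not tested.

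Slc7a11, the cystine transporter, was low throughout. It measured 7.20, 5.14 and 4.23 CPM in IL-4Rα+/+ and 5.28, 5.43 and 5.04 CPM in IL-4Rα-/- libraries. The IL-4Rα-/- libraries lay within the IL-4Rα+/+ range, and the log2 fold change was -0.07 ± 0.23 (SE). Its sign turned without IL-4Rα+/+ replicate 1, to 0.16.

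Gsr, glutathione reductase, was the most abundant member. It measured 758, 733 and 1049 CPM in IL-4Rα+/+ and 673, 1137 and 684 CPM in IL-4Rα-/- libraries. A single library of each genotype, IL-4Rα+/+ replicate 3 and IL-4Rα-/- replicate 2, stood far above the others, and the log2 fold change was -0.03 ± 0.24 (SE). Without IL-4Rα-/- replicate 2 it was -0.32, and without IL-4Rα+/+ replicate 3 it was 0.16. These 2 libraries also had the highest sums of 15 neutrophil and granulocyte precursor markers of their genotype, 309 and 786 CPM, in ranges of 66.2 to 309 CPM in IL-4Rα+/+ and 147 to 786 CPM in IL-4Rα-/-. Of the 14 such markers tested 13 had a log2 fold change above 0, and none of the list was at 0 in all libraries. In edgeR 0 passed the adjusted test and 5 were higher at an unadjusted p under 0.05, and DESeq2 called 1, Camp (adjusted p = 0.123). Mmp8 alone gave 170.5 and 304.7 CPM of the sums in these 2 libraries. In the same libraries the monocyte markers Ccr2, Ly6c2, Itgam and Lyz2 were the highest of their genotype. Csf1r, Cx3cr1, Nr4a1, Treml4, Ace and Klf4 were the lowest there. Ccr2 reached 1668 and 2008 CPM, and Ace fell to 1088 and 710 CPM. The part of neutrophil or monocyte RNA in the Gsr levels was not tested.

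Of the NRF2 targets of the thioredoxin arm, Txnrd1 encodes the cytosolic thioredoxin reductase and Srxn1 the sulfiredoxin that repairs overoxidized peroxiredoxins. Txnrd1 measured 115, 91.5 and 99.6 CPM in IL-4Rα+/+ and 109, 146 and 111 CPM in IL-4Rα-/- libraries. Srxn1 measured 14.2, 9.95 and 10.8 CPM in IL-4Rα+/+ and 11.9, 15.4 and 13.02 CPM in IL-4Rα-/- libraries. In both genes IL-4Rα+/+ replicate 1 reached into the IL-4Rα-/- range and IL-4Rα-/- replicate 2 was the highest. The log2 fold changes were 0.26 ± 0.14 and 0.21 ± 0.18 (SE). Without IL-4Rα+/+ replicate 1 they were 0.35 for Txnrd1 and 0.37 for Srxn1. Without IL-4Rα-/- replicate 2 they fell to 0.11 and 0.1.

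Nqo1, a quinone reductase often used as a marker of NRF2 activity, was barely detected. It had 44, 22 and 12 reads in IL-4Rα+/+ and 33, 20 and 37 reads in IL-4Rα-/- libraries, or 0.453 to 1.55 and 0.701 to 1.25 CPM. At 12 reads, counting alone gives a spread of 28.9% of the value. The genotypes overlapped, and the log2 fold change was 0.16 ± 0.49 (SE). The spread between the IL-4Rα+/+ libraries was 60.0% of their mean, above the spread from counting.

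The regulators themselves were close between genotypes. Nfe2l2 measured 302, 232 and 225 CPM in IL-4Rα+/+ and 250, 230 and 239 CPM in IL-4Rα-/- libraries. IL-4Rα+/+ replicate 1 was above all others, the remaining libraries were within a narrow range, and the log2 fold change was -0.08 ± 0.13 (SE). Keap1 measured 72.2, 81.7 and 80.5 CPM in IL-4Rα+/+ and 81.5, 96.7 and 85.3 CPM in IL-4Rα-/- libraries. The genotypes of Keap1 overlapped only through IL-4Rα+/+ replicate 2 and IL-4Rα-/- replicate 1, which nearly coincided, and the log2 fold change was 0.17 ± 0.09 (SE). Transcript levels do not measure the release of NRF2 from KEAP1, which acts on the protein.

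IL-4Rα+/+ replicate 1 set the members' spread more than any other library of its genotype. It held the highest level of Gclc, Gss, Nqo1, Slc7a11 and Nfe2l2 among all 6 libraries and the lowest of Keap1. Over the 6 libraries Nfe2l2 correlated with Slc7a11 at a Pearson r of 0.90 and with Gclc at 0.84, and Txnrd1 with Srxn1 at 0.93. Gclm correlated with Gclc at -0.09, with Nfe2l2 at -0.16 and with Keap1 at 0.61. These are descriptions over 6 libraries that differ in genotype and in the cells they hold.

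**Figure D2:**
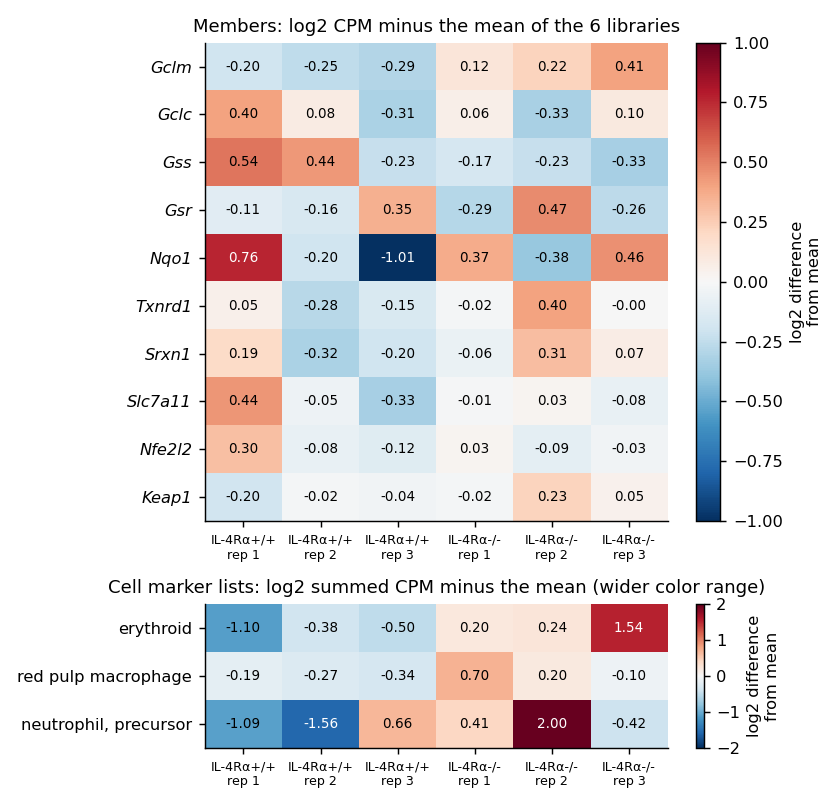
The log2 CPM of each member minus its mean over the 6 libraries (upper panel, color and number), and the same for the summed CPM of 3 cell marker lists (lower panel, wider color range), with 1 column per library. Gclm is above its mean in the 3 IL-4Rα-/- libraries only. Erythroid markers share that direction, as do those of eosinophils, basophils and mast cells, which are not shown. The Gsr row is highest in the libraries with the highest neutrophil sum of their genotype, which also had the highest Ccr2 (not shown).

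On the scale of TPM, which allows genes to be compared, the members ranged from 1.31 to 1023 TPM. The mean level over the 6 libraries was 1023 TPM for Gsr, 219 TPM for Nfe2l2, 59.6 TPM for Keap1, 53.2 TPM for Txnrd1 and 50.3 TPM for Gclc. Below them came Gss at 19.9 TPM, Gclm at 19.2 TPM, Srxn1 at 14.95 TPM, Nqo1 at 2.15 TPM and Slc7a11 at 1.31 TPM. Gsr was above 99.2% of the tested genes, Gclm above 52.6% and Slc7a11 above 12.1%. The ranges of Keap1 and Txnrd1, Txnrd1 and Gclc, Gss and Gclm, Gclm and Srxn1, and Nqo1 and Slc7a11 overlapped, so the order within these pairs is not settled by the 6 libraries. Taking the longest transcript as the length in place of all exons moved Txnrd1 to 79.8 TPM, Gss to 27.7 TPM, Srxn1 to 11.5 TPM and Nfe2l2 to 258 TPM.

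**Figure D3:**
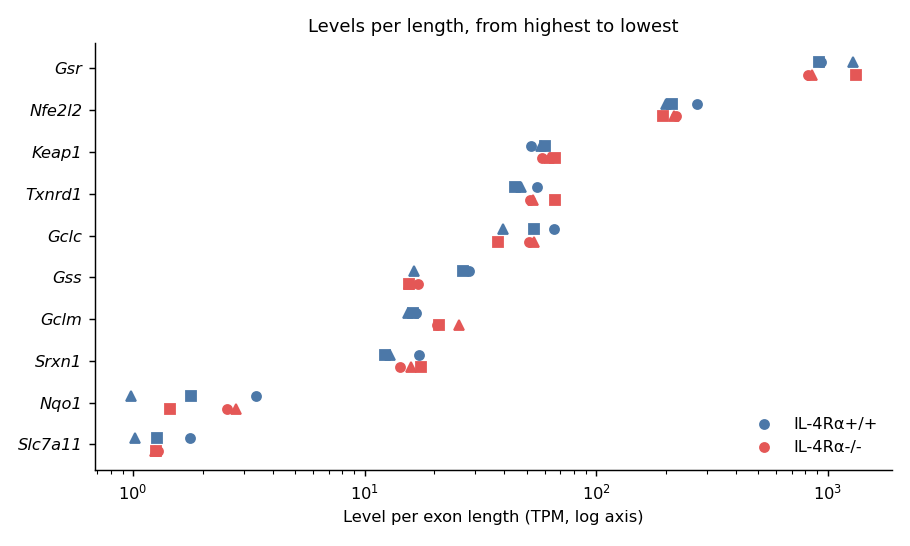
Level per exon length in TPM (horizontal log axis) of the 10 genes in IL-4Rα+/+ (blue) and IL-4Rα-/- (red) libraries, each symbol being 1 library. Gsr lies highest at 822 to 1326 TPM, and Slc7a11 lowest at 1.02 to 1.77 TPM.

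Beyond the members, 84 genes of 6 lists around the same pathway were examined, of which 77 were tested. None passed the adjusted test of edgeR, and DESeq2 called 1. At an unadjusted p under 0.05, 14 of the 77 were higher and 2 lower in IL-4Rα-/-, beside 3.72% and 4.37% of all genes tested. The genotypes did not overlap in 16 with the higher level in IL-4Rα-/- and in 4 with the lower, beside 7.63% and 7.87% of all genes tested. These shares of all genes are the background for each list that follows. The median log2 fold change of the 77 was 0.161. The lists were not of equal weight, since 8 of the 14 came from the list of other NRF2 targets. The adjusted p of the pathway genes named below was 0.618 or more in edgeR.

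**Figure D4:**
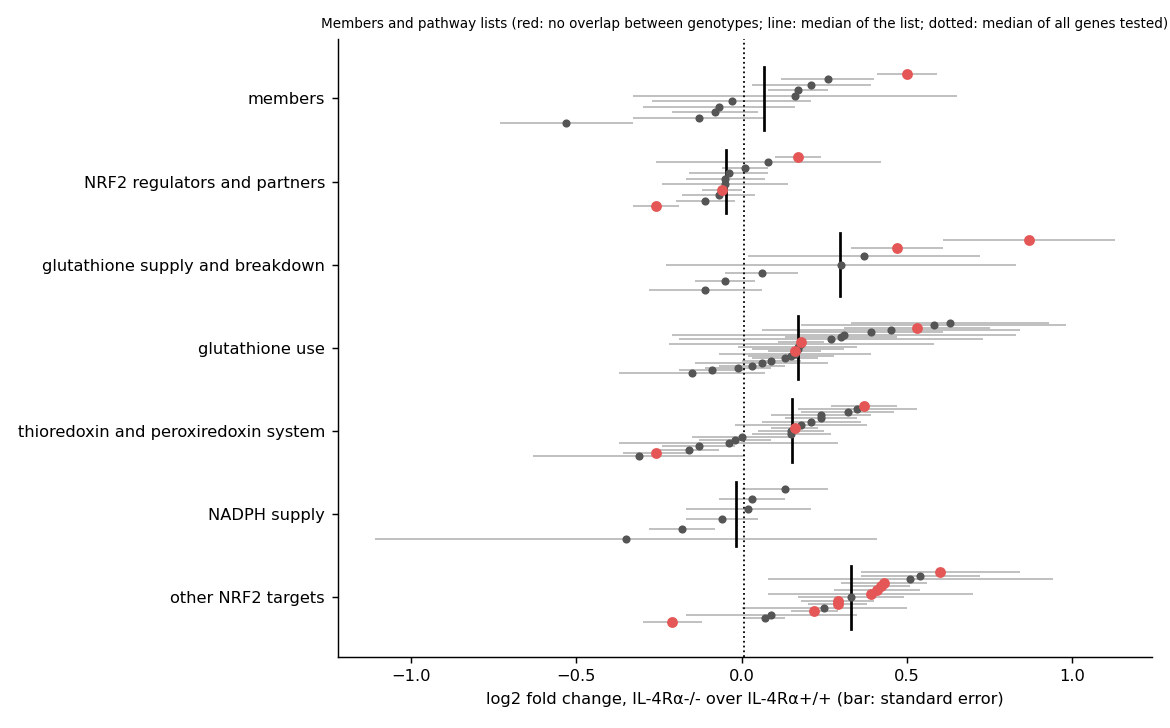
Log2 fold change of IL-4Rα-/- over IL-4Rα+/+ (horizontal axis, bars are standard errors) for the members and the tested genes of 6 lists, with genes whose genotypes do not overlap in red, list medians as black lines and the median of all tested genes dotted. Other NRF2 targets have the highest median, 0.33, and the regulators the lowest, -0.048.

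The list of other NRF2 targets held the most differences. Of its 15 tested genes 14 had a log2 fold change above 0, 8 were higher at an unadjusted p under 0.05 and 0 lower, and the median was 0.33. Of all genes tested 51.5% had a log2 fold change above 0, and 3.72% were higher at an unadjusted p under 0.05. The count of 8 became 3 without IL-4Rα-/- replicate 1, beside 1.78% of all genes, and 3 without IL-4Rα+/+ replicate 2, beside 2.15%, with 14 of the 15 above 0 in both cases. By the smallest p, Blvra and Blvrb, the biliverdin reductases that act after heme oxygenase, and Fth1, the ferritin heavy chain, led the list. Blvra measured 58.4, 56.4 and 52.0 CPM in IL-4Rα+/+ and 80.6, 72.5 and 69.3 CPM in IL-4Rα-/- libraries, a log2 fold change of 0.42 ± 0.09 (SE). It was the pathway gene called by DESeq2, with an adjusted p of 0.0981 against 0.618 in edgeR. Blvrb measured 59.0, 60.4 and 52.2 CPM in IL-4Rα+/+ and 92.1, 68.1 and 71.4 CPM in IL-4Rα-/- libraries, a log2 fold change of 0.43 ± 0.13 (SE). Fth1 measured 1738, 1488 and 1574 CPM in IL-4Rα+/+ and 2089, 1949 and 1847 CPM in IL-4Rα-/- libraries, a log2 fold change of 0.29 ± 0.09 (SE). In these 3 genes every IL-4Rα-/- library lay above every IL-4Rα+/+ library.

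The promoter window of Blvra held the core motif, shown with 20 bases to either side from chr2:127070588-127070636 on the plus strand, and so did those of Prdx1, from chr4:116685446-116685494 on the plus strand, and Mafg, from chr11:120633741-120633789 on the minus strand.
Blvra: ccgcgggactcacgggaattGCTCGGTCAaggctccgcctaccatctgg
Prdx1: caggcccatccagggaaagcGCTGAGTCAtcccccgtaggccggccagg
Mafg: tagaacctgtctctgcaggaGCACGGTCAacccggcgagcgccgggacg
These were the 3 of the 16 named pathway genes with a window in which the core was found.

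The other genes of this list at an unadjusted p under 0.05 were Hmox1, Osgin1, Ftl1, Ephx1 and Htatip2, named after their values were seen. Hmox1, the heme oxygenase that opens the heme ring, measured 1042, 801 and 804 CPM in IL-4Rα+/+ and 1520, 1010 and 1330 CPM in IL-4Rα-/- libraries. Its genotypes overlapped through IL-4Rα+/+ replicate 1 and IL-4Rα-/- replicate 2, and the log2 fold change was 0.54 ± 0.18 (SE). Ftl1, the ferritin light chain, measured 1819, 1595 and 1636 CPM in IL-4Rα+/+ and 2344, 1862 and 1984 CPM in IL-4Rα-/- libraries. The log2 fold changes of the others were 0.41 ± 0.13 for Osgin1, 0.60 ± 0.24 for Ephx1 and 0.22 ± 0.07 for Htatip2 (SE). Slc48a1, which moves heme out of lysosomes, measured 132, 124 and 110 CPM in IL-4Rα+/+ and 188, 122 and 150 CPM in IL-4Rα-/- libraries and overlapped. The gene with the opposite direction was the efflux pump Abcc1, at -0.21 ± 0.09 (SE), also named after its value was seen.

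Several of the heme and iron genes are used heavily by the macrophages of the splenic red pulp, which break down red cells. The sum of 13 red pulp macrophage markers, such as Spic and Vcam1, was 3022 to 3339 CPM in IL-4Rα+/+ and 3575 to 6187 CPM in IL-4Rα-/- libraries. It was highest in IL-4Rα-/- replicate 1, which was also the highest library for Hmox1, Blvra, Blvrb, Fth1, Ftl1 and Slc48a1. The marker sum was 4386 CPM in IL-4Rα-/- replicate 2 and 3575 CPM in IL-4Rα-/- replicate 3. Blvra and Fth1 had the same order in these libraries, and Hmox1, Blvrb, Ftl1 and Slc48a1 the reverse. Of the 13 markers 12 had a log2 fold change above 0, and none was at 0 in all libraries. Neither edgeR nor DESeq2 called any of them at an adjusted p of 0.15, and 6 were higher at an unadjusted p under 0.05 in edgeR. The part of macrophage RNA in these values was not tested. Fth1, Ftl1 and Prdx1 have near-identical copies in the genome, which makes their unique counts uncertain.

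**Figure D5:**
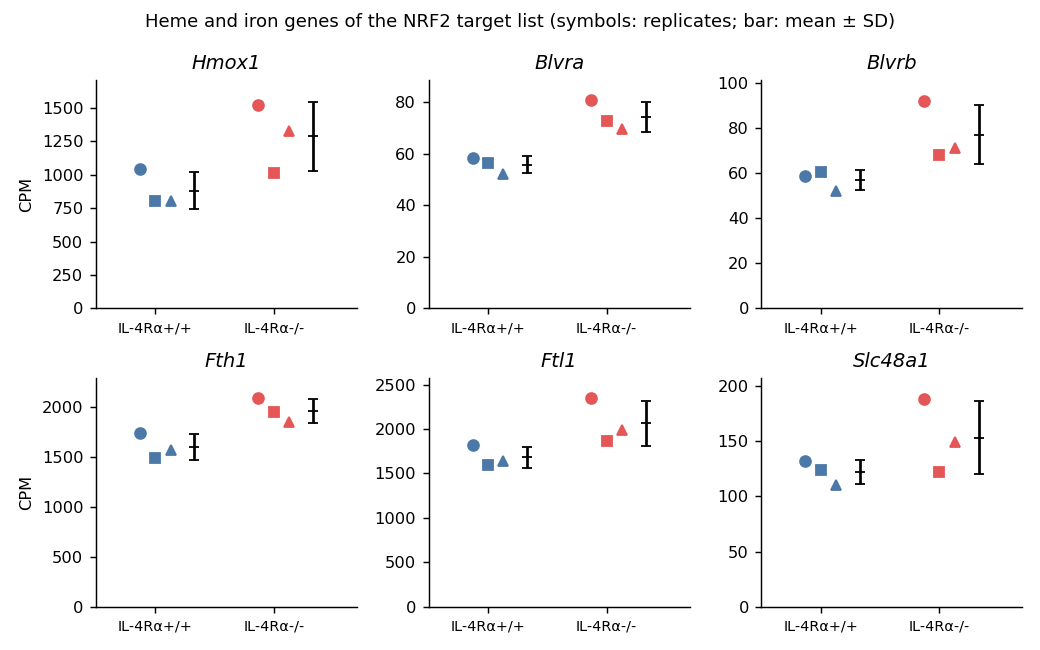
Level in CPM (vertical axes, from 0) of 6 heme and iron genes of the list of other NRF2 targets, chosen by that role, in IL-4Rα+/+ (blue) and IL-4Rα-/- (red) libraries with mean ± SD. IL-4Rα-/- replicate 1 (red circle) is the highest library in all 6 panels, and Hmox1 and Slc48a1 overlap between genotypes.

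Among 10 regulators and partners of NRF2, 1 was higher and 1 lower at an unadjusted p under 0.05, and the median log2 fold change was -0.048. Each direction rested on a single gene. Bach1, a repressor that competes with NRF2 for antioxidant response elements and is itself released by heme, measured 351, 385 and 349 CPM in IL-4Rα+/+ and 306, 301 and 299 CPM in IL-4Rα-/- libraries. All IL-4Rα-/- libraries were below all IL-4Rα+/+ libraries, and the log2 fold change was -0.26 ± 0.07 (SE). Rbx1, a subunit of the ligase through which KEAP1 marks NRF2 for degradation, had a log2 fold change of 0.17 ± 0.07 (SE), and Mafg, a DNA-binding partner of NRF2, one of -0.11 ± 0.09 (SE). Cul3, the scaffold of the same ligase, measured 140.5 to 149.4 CPM over both genotypes, with a log2 fold change of 0.01 ± 0.07 (SE), and was named after its values were seen. Gsk3b was the other gene without overlap in the lower direction, at -0.06 ± 0.06 (SE).

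Genes for the supply and breakdown of glutathione numbered 10, of which 7 were tested, 2 were higher and 0 lower at an unadjusted p under 0.05. Oplah, which returns the oxoproline of broken-down glutathione to glutamate, measured 3.34, 3.22 and 3.66 CPM in IL-4Rα+/+ and 8.03, 6.41 and 4.23 CPM in IL-4Rα-/- libraries. The genotypes did not overlap, although the IL-4Rα-/- libraries were spread widely, and the log2 fold change was 0.87 ± 0.26 (SE). Lap3, an aminopeptidase that can split cysteinylglycine, measured 61.7, 57.0 and 55.5 CPM in IL-4Rα+/+ and 96.7, 65.9 and 78.3 CPM in IL-4Rα-/- libraries, without overlap and with a log2 fold change of 0.47 ± 0.14 (SE). Ggt5, a gamma-glutamyl transferase, overlapped widely at 0.37 ± 0.35 (SE).

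Of the 22 tested enzymes that use glutathione, 19 had a log2 fold change above 0, 2 were higher at an unadjusted p under 0.05 and 0 lower, and the median was 0.169. The share of all genes above 0 was 51.5%, and 3.72% were higher at an unadjusted p under 0.05. These were the transferases Gstp1, at 31.3, 31.7 and 33.5 CPM in IL-4Rα+/+ and 35.7, 37.8 and 36.2 CPM in IL-4Rα-/- libraries, and Gstk1, at 4.01, 5.21 and 6.87 CPM in IL-4Rα+/+ and 7.82, 7.57 and 7.85 CPM in IL-4Rα-/- libraries. Neither overlapped between genotypes, and the log2 fold changes were 0.18 ± 0.07 and 0.53 ± 0.22 (SE). With a trend over gene length removed they were 0.06 ± 0.08 and 0.43 ± 0.23 (SE). Gstp1 has close copies in the genome, so that its counts are uncertain. Mgst3, a microsomal transferase, measured 3.58, 4.96 and 7.21 CPM in IL-4Rα+/+ and 7.14, 10.5 and 6.80 CPM in IL-4Rα-/- libraries, and overlapped. Gpx4, the peroxidase for lipid peroxides, was the third gene without overlap, at 0.16 ± 0.08 (SE), and was named after its value was seen.

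In the thioredoxin and peroxiredoxin system 17 genes were tested, of which 1 was higher and 1 lower at an unadjusted p under 0.05, with a median of 0.153. With 3.72% and 4.37% of all genes higher and lower, 1 of 17 in each direction is near the background, and nothing is read from the pair. Prdx1, a cytosolic peroxiredoxin, measured 266, 240 and 293 CPM in IL-4Rα+/+ and 346, 369 and 321 CPM in IL-4Rα-/- libraries. Txnip, an inhibitor of thioredoxin, measured 853, 786 and 859 CPM in IL-4Rα+/+ and 780, 619 and 683 CPM in IL-4Rα-/- libraries. The genotypes overlapped in neither gene, at log2 fold changes of 0.37 ± 0.10 and -0.26 ± 0.10 (SE). Prdx2, another peroxiredoxin and abundant in red cells, overlapped at 0.32 ± 0.14 (SE), beside the erythroid sums given above.

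The 6 genes that supply NADPH to both reductases showed 0 differences in either direction at an unadjusted p under 0.05, with 3 above and 3 below 0 and a median of -0.017. The log2 fold changes were -0.18 ± 0.10 for Tkt and 0.13 ± 0.13 for Taldo1, both of the pentose phosphate pathway, and -0.06 ± 0.11 (SE) for Idh1, the cytosolic isocitrate dehydrogenase.

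The tested genes most like Gclm over the 6 libraries by Pearson's correlation of log2 CPM were Atp9a (r = 0.989), AC113953.1 (0.988), Sephs1 (0.98), Ehhadh (0.977) and Tmem250-ps (0.975). All 5 were without overlap and higher in IL-4Rα-/-, which follows from the likeness. Atp9a, a lipid flippase, measured 0.773, 0.687 and 0.566 CPM in IL-4Rα+/+ and 2.46, 2.42 and 3.92 CPM in IL-4Rα-/- libraries. It had only 15 to 22 reads in IL-4Rα+/+ and 69 to 116 in IL-4Rα-/- libraries. AC113953.1 had 8 to 17 reads per library and Ehhadh 35 to 57, so their values are uncertain from counting alone. In all, 77 of 13848 genes had a correlation with Gclm over 0.9. By Spearman's correlation, or by deviations from the genotype means, 0 of the 5 were among the first 5. Their Spearman correlation with Gclm was still 0.943 each, and that of the deviations was 0.815 to 0.917.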

How the data were processed

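RNA of negatively selected splenic monocytes was sequenced by the authors as single-end reads with a directional poly(A) kit. The authors aligned the reads with STAR 2.6.1a to GRCm38 and deposited raw counts of reads per gene, 1 file per library, without normalization. RSEM and DESeq2 1.22.2 are also named in the submitters' processing notes. STAR's lines for reads on no gene, multimapping and ambiguous reads were left out of library sizes. They made up 21.1% to 22.8% of all reads with the unmapped reads. Symbols of 55240 of 55421 identifiers, positions and exon lengths came from a nearby Gencode release.

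The filter filterByExpr (minimum count 10) and TMM scaling came first. IL-4Rα-/- was then compared with IL-4Rα+/+ without covariates by edgeR (version 4.0.16, R version 4.3.3), using quasi-likelihood F-tests, with Benjamini-Hochberg adjustment and the study's threshold of 0.15. Tested on simulated data with 200 genes changed 4-fold, the step recovered 96.5% of them and called 49 others. The simulation gave every gene the same dispersion between libraries, unlike these data, so this recovery does not carry over to them. In the real libraries Il4ra, at 0.314-fold, had an adjusted p of 0.618 in edgeR. SE are those of the log2 fold change. TPM were computed from the counts over all exons of a gene. DESeq2 1.42.0, other scalings, no filter, a Xist covariate, removal of a length trend (loess, span 0.5), a replicate block and omission of each library were alternatives. The labels give no pairing: the deviations of same-numbered libraries correlated at 0.185, -0.271 and -0.296.

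The members and lists were chosen with earlier results of these data known, so members carry no p-value. Genes named were all members, Il4ra, the 3 of each list with the smallest p, the 5 most like Gclm, and others where stated.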

Additional observations from a re-analysis of the deposited data

How the results depend on the processing

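With 3 mice per genotype, small differences such as those of most members cannot be separated from the spread between mice, and at the 12 reads of Nqo1 in 1 library counting alone adds 28.9% of the value. The log2 fold change of Gclm was 0.42 to 0.56 over 13 alternatives, and 124 of the 130 values of members under an alternative lay within 1 SE of the main one. The sign turned under at least 1 alternative for Gclc, Gsr, Nqo1, Slc7a11 and Nfe2l2. DESeq2 called 80 genes and 1 pathway gene, where edgeR called 0 under each of its settings, the threshold of 0.05 and the omission of any library included. Members without overlap numbered 2 without TMM (Gclm and Keap1) and 3 with the length trend removed (Gclm, Gss and Nfe2l2). When 1 library was left out they numbered 1 to 3. Gclm was among them each time, which was fixed in advance, since leaving out a library can only narrow a range. The share of all genes without overlap is not given for these settings, so nothing is read from these counts. The count of other NRF2 targets higher at an unadjusted p under 0.05 was added after seeing the data. It was 5 with the length trend removed and 3 to 8 when 1 library was left out, the lowest without IL-4Rα+/+ replicate 2 and without IL-4Rα-/- replicate 1. The log2 fold change of Ggt5 was -0.01 to 0.61 and that of Idh1 -0.17 to 0.02 when 1 library was left out, the changes of sign coming from IL-4Rα-/- replicate 2 and IL-4Rα-/- replicate 3. The labels do not say whether same-numbered libraries are pairs. With a replicate block 0 genes were called, 765 had an unadjusted p under 0.05 against 1120 without it, and the log2 fold change of Gclm was 0.50. The cause of these changes was not tested.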
